A study of Mus musculus with 2 samples.

Results

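The clustered protocadherins are cell adhesion molecules of neurons encoded by 3 tandem gene clusters, named α (Pcdha), β (Pcdhb) and γ (Pcdhg). Members were taken by symbol, as genes with a protein-coding transcript whose symbol begins Pcdha, Pcdhac, Pcdhb, Pcdhga, Pcdhgb or Pcdhgc and ends in a number. This gave 58 gene records with 57 symbols among 55536 genes: 14 in the α, 22 in the β and 22 in the γ cluster. All 58 lie on the plus strand of mouse chromosome 18, and Pcdha11 has 2 records.

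As background, each α and γ member has its own promoter and its own large variable exon, which encodes the extracellular cadherin repeats, the transmembrane segment and part of the cytoplasmic tail. That exon is spliced to constant exons at the end of the cluster, which encode a shared cytoplasmic domain. The β members are single-exon genes with no constant exons. A neuron expresses a few of the alternate members, chosen stochastically by promoter with the help of CTCF and cohesin, whereas the C-type members (Pcdhac1, Pcdhac2, Pcdhgc3, Pcdhgc4 and Pcdhgc5) are chosen in a more regular way. The proteins bind homophilically in combinations, which gives neurons a surface identity used in self-avoidance and in axon and dendrite patterning.

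The RNA was polyadenylated RNA of hippocampus tissue from C57BL/6 mice (strain B6NCrl) of 6 months, described in the labels as male. The hippocampus is a brain region of memory formation, rich in pyramidal and granule neurons. The series has 1 group of 2 libraries, biological replicates 1 and 2, each made from 20 ng of RNA by Nextera tagmentation. They carry 1 donor identifier, and the labels do not say whether they came from separate animals. No treatment or genotype was compared, so the values given are levels, their distance between replicates 1 and 2, and the agreement of 2 quantification programs.

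The first program assigned 38921662 expected reads to genes in replicate 1 and 39499350 in replicate 2, and the second program 55151358 and 55608083 estimated reads. All 7 neuron, 4 astrocyte, 3 oligodendrocyte and 3 microglia markers reached at least 1 TPM in both libraries, where TPM is a level scaled for transcript length and depth. The median log2 ratio of replicate 1 over replicate 2 was -0.24 over neuron and 0.25 over astrocyte markers. It was -0.13 over oligodendrocyte, -0.10 over microglia, -0.34 over endothelium and 0.70 over red blood cell markers. All 8 choroid plexus markers were called higher in replicate 1 by the exact binomial test and 2-fold ratio described below. Over all genes tested, 2.41% were called in either direction. The summed level of the choroid plexus markers was 15265 TPM in replicate 1 against 130.6 TPM in replicate 2, and none was at 0. Of 5 meninges markers, 1 (Igf2) was called higher in replicate 1 and 1 (Slc6a13) in replicate 2. The part of these marker differences in the values below was not tested. In RNA from whole tissue, fewer cells of a type and less RNA per cell cannot be told apart.

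On the mm10 assembly the α cluster spanned chr18:36930184-37187661, the β cluster chr18:37264938-37524479 and the γ cluster chr18:37661793-37841873. In the M21 annotation, the 14 α members shared constant exons of 59, 89 and 2712 bases. In the γ cluster, exons of 59 and 89 bases were in transcripts of all 22 members. A last exon of 1971 bases, ending at position 37841873, was in those of 17. Exons were matched by exact bounds, so members annotated with other bounds were not counted. The records of Pcdhga2, Pcdhga9, Pcdhgb1, Pcdhgb4 and Pcdhgb8 end at 37841870. The constant exons encode 152 amino acids in the α and 124 in the γ cluster. Of the longest complete transcript of each α member, 48.6% to 54.9% lay in bases shared with another member. The γ median was 44.9% and the β median 0%, with overlaps in Pcdhb21 (9.67%) and Pcdhb22 (6.89%) only. The encoded proteins were 934 to 1006 amino acids long in the α, 772 to 829 in the β and 912 to 944 in the γ cluster.

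A single member, Pcdhgc5, held close to 30% of all clustered protocadherin RNA, and the C-type members together held 39.6% ± 0.921 (SD, n = 2). Summed over all 58 members, levels came to 209.2 TPM in replicate 1 and 211.6 TPM in replicate 2. They took 0.0685% and 0.0682% of the expected reads. The γ cluster had 58.8% ± 1.19 of the summed TPM, the β cluster 21.9% ± 0.702 and the α cluster 19.3% ± 1.90 (SD, n = 2). The γ share was above the others in both libraries. The α share was 17.98% in replicate 1 and 20.67% in replicate 2, and the β share 22.38% and 21.38%. The α share was the lower one in both libraries, but in replicate 2 the gap was smaller than the distance between the 2 α values. By the first program, levels reached at least 1 TPM in both libraries in 43 of 58 members: 11 of 14 α, 14 of 22 β and 18 of 22 γ members.

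**Figure D1:**
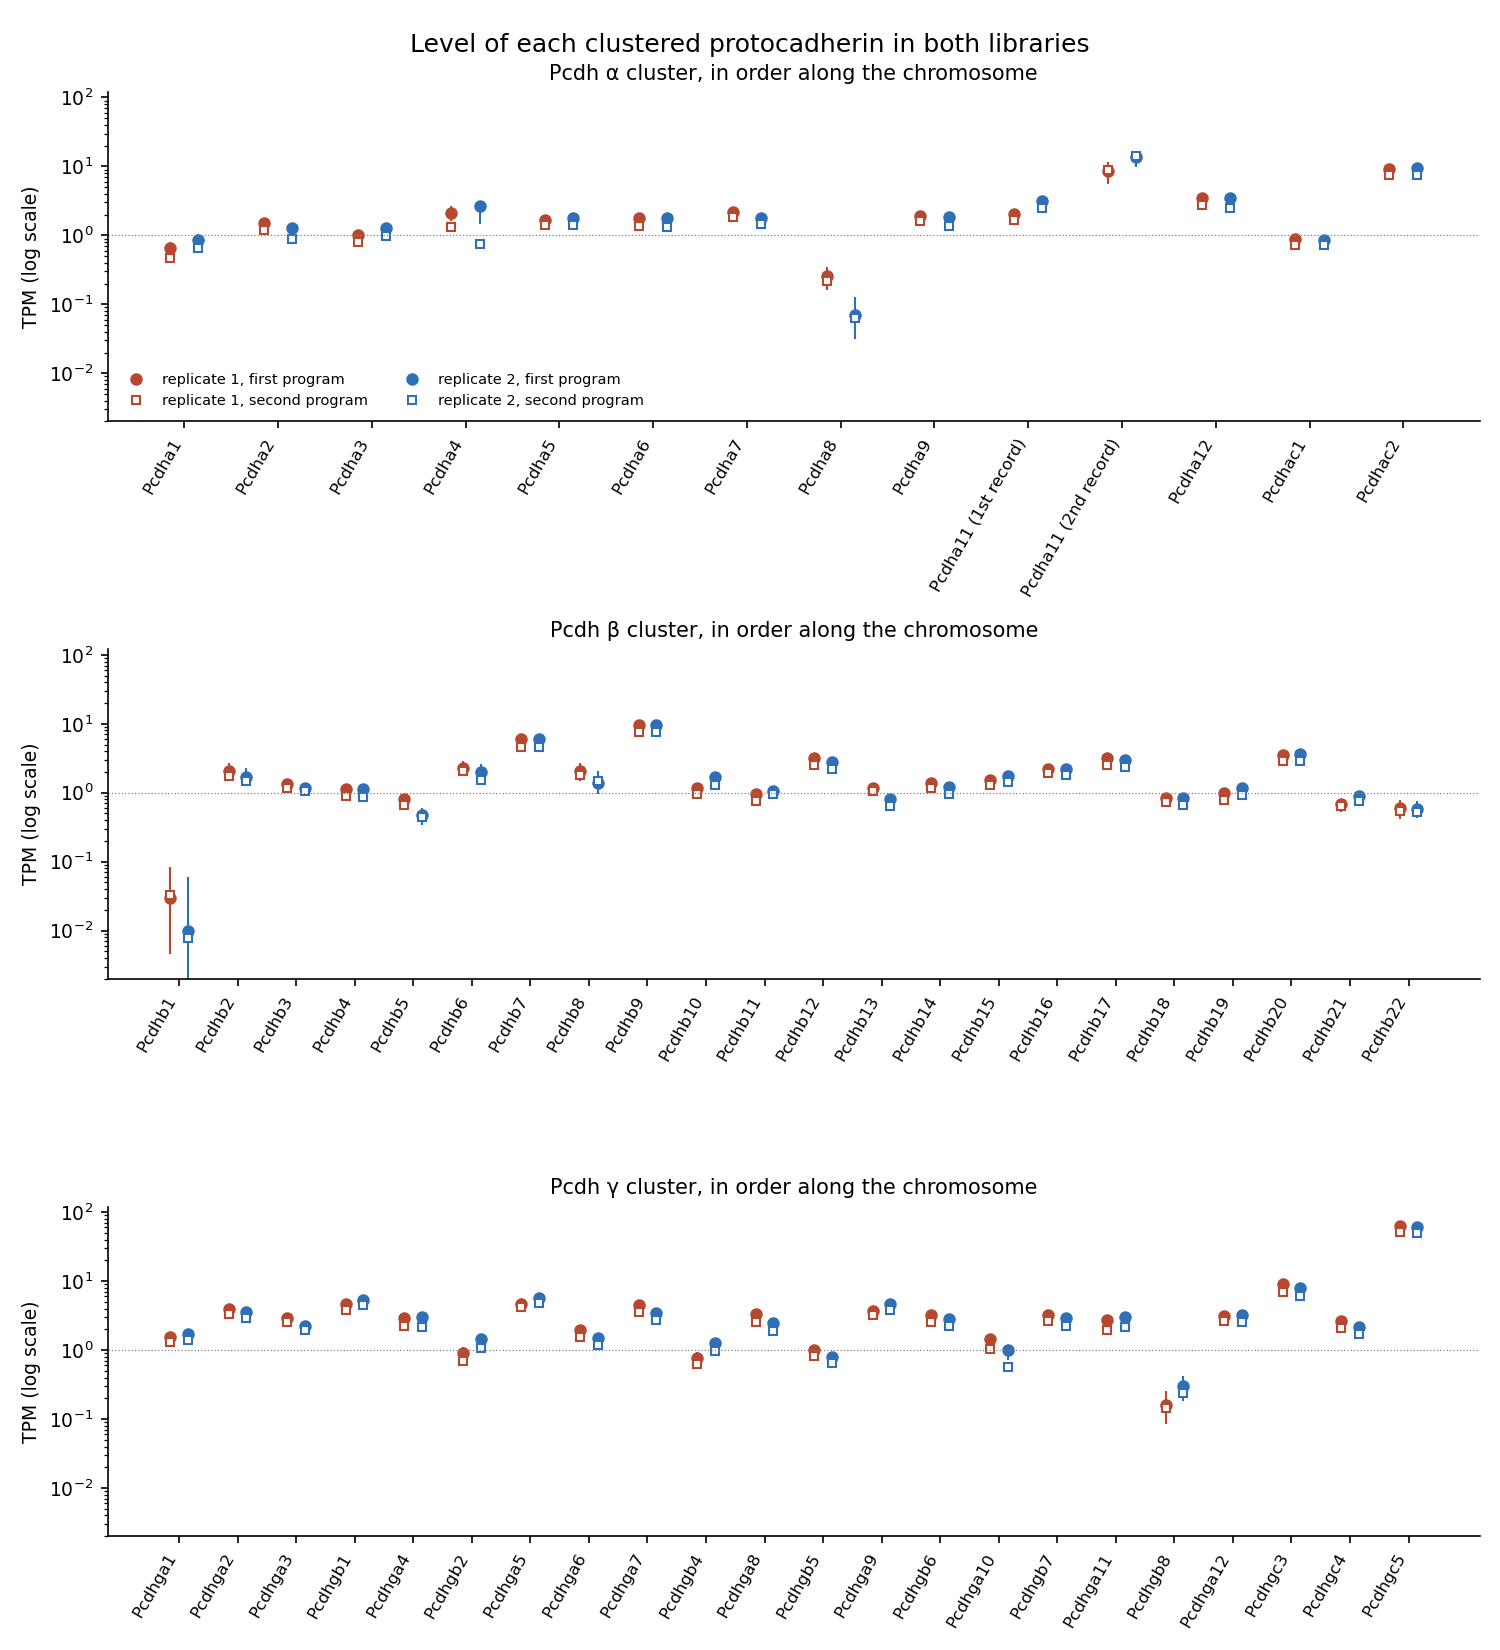
TPM of each member on a log axis, by its order along the α (top), β (middle) and γ (bottom) cluster, in replicate 1 (red) and replicate 2 (blue). Filled circles are the first program with its deposited interval as a line, open squares the second program, and the dotted line is 1 TPM; the interval of Pcdhb1 in replicate 2 runs below the axis. Pcdhgc5, at 62.4 and 61.9 TPM, stands above all other members.

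The share of expression can be read as an effective number of members, which is the number of equally expressed members with the same Shannon entropy. Over all members it was 25.3 in replicate 1 and 25.0 in replicate 2. Without Pcdhgc5 its mean over both libraries was 41.1. It was 15.2 in the β cluster, 9.02 in the α cluster and 8.28 in the γ cluster, and 17.4 in the γ cluster without Pcdhgc5. Within the γ-A class of 12 members it was 11.1, although their mean levels ran from 1.22 TPM (Pcdhga10) to 5.155 TPM (Pcdhga5).

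The classes differed in their share. The 3 γ C-type members had 34.8% ± 0.926 of the summed TPM, the 12 γ-A members 17.2% ± 0.567 and the 7 γ-B members 6.84% ± 0.299. The 12 alternate α members had 14.5% ± 1.89 and the 2 α C-type members 4.87% (SD, n = 2). In the second program the shares were 34.5% for the γ C-type members, 17.0% for γ-A, 6.78% for γ-B, 15.02% for the alternate α and 4.78% for the α C-type members. The order of the classes was the same by either program in replicate 1 and replicate 2.

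**Figure D2:**
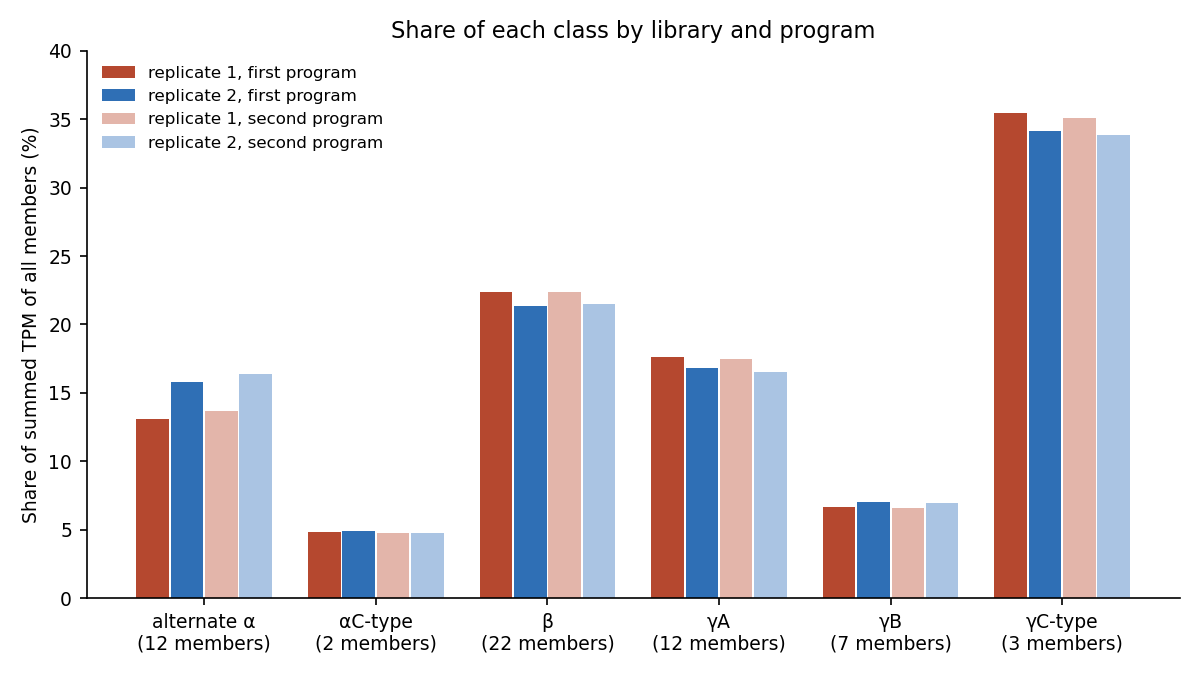
Share of the summed TPM of all members, in percent, held by each class, with 1 bar for each library and program. The γ C-type bars lie highest (mean 34.8% in the first program) and the α C-type bars lowest (4.87%), and the alternate α bars of the 2 libraries lie furthest apart.

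Pcdhgc5, the last gene of the γ cluster, had 62.4 TPM in replicate 1 and 61.9 TPM in replicate 2, from 8273 and 8496 expected reads. It ranked 2261 of 55536 genes by mean TPM and held 50.3% ± 0.381 of the γ cluster (SD, n = 2). In the second program it had 51.5 and 49.7 TPM, which was 50.7% of the cluster. Its libraries differed by a log2 ratio of -0.03, with an adjusted p of 0.26 in the exact binomial test described below.

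The other C-type members were far below it. Pcdhac2, the last variable exon of the α cluster, had 9.29 and 9.45 TPM in replicates 1 and 2, and Pcdhgc3 had 9.06 and 8.07 TPM. Pcdhgc4, which is known to be needed for survival of spinal and cortical interneurons in mice, had 2.67 and 2.15 TPM. Over all transcripts Pcdhac1 was the lowest, with 0.90 and 0.87 TPM. Over complete coding transcripts only, Pcdhgc4 had 0.82 TPM in replicate 1 and 0.36 TPM in replicate 2, below Pcdhac1 in both libraries. After Pcdhgc5 the order of mean levels over all classes was the second record of Pcdha11 (11.1 TPM), Pcdhb9 (9.67), Pcdhac2 (9.37) and Pcdhgc3 (8.57). By the first program the library values of this Pcdha11 record enclosed those of Pcdhb9 and Pcdhac2 and overlapped those of Pcdhgc3. Its place among them could thus not be given by that program. By the second program it had 8.80 TPM in replicate 1 and 13.9 TPM in replicate 2, above Pcdhb9, Pcdhac2 and Pcdhgc3 in both. The values of Pcdhb9, Pcdhac2 and Pcdhgc3 did not overlap one another by the first program. Their deposited intervals all overlapped in replicate 1. In replicate 2 those of Pcdhb9 and Pcdhac2 overlapped, and that of Pcdhgc3 lay below both. By the second program Pcdhb9 (7.70 and 7.50 TPM) and Pcdhac2 (7.54 and 7.41 TPM) overlapped. Pcdhgc3 was the lowest of the 3 in both libraries by both programs. Over complete coding transcripts only, the second record of Pcdha11 had 0.91 TPM in replicate 1 and 0.42 TPM in replicate 2, which is among the lowest members.

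In the alternate α class, the 2 records under the symbol Pcdha11 were among the 3 highest by mean TPM. The second record, starting at position 37010712, had 8.72 TPM in replicate 1 and 13.5 TPM in replicate 2. The first record, starting at 37005203, had 2.06 and 3.17 TPM, which overlapped the 2.12 and 2.64 TPM of Pcdha4. In the RefSeq table of GRCm38.p6, Pcdha10 starts at 37005320 and Pcdha11 at 37010858, which are 117 and 146 bases after the starts of the first and the second record. Pcdha12, the last alternate member, had 3.54 and 3.47 TPM. Pcdha8 was the lowest, with 0.26 and 0.07 TPM from 40.4 and 11.7 expected reads. The other 8 had mean levels from 0.76 TPM (Pcdha1) to 2.38 TPM (Pcdha4).

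In the β cluster, Pcdhb9 had 9.61 TPM in replicate 1 and 9.73 TPM in replicate 2, from 850.8 and 879.9 reads. Pcdhb7 had 6.07 TPM in each library, and Pcdhb20 had 3.47 and 3.60 TPM. These 3 did not overlap one another between libraries. The lowest was Pcdhb1, the first gene of the cluster, with 2 reads in replicate 1 and 1 read in replicate 2 (0.03 and 0.01 TPM). Both counts are under 3 reads, the limit that a count of 0 allows. The other 18 β members had means from 0.59 TPM (Pcdhb22) to 3.06 TPM (Pcdhb17).

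All 12 γ-A members reached 1 TPM in both libraries by the first program, and 11 did so by both programs. Pcdhga5 had 4.70 TPM in replicate 1 and 5.61 TPM in replicate 2, Pcdhga9 3.67 and 4.67 TPM, and Pcdhga7 4.47 and 3.50 TPM. The values of Pcdhga9 and Pcdhga7 overlapped, and both of Pcdhga5 lay just above them. Pcdhga10 was the lowest, with 1.44 and 1.00 TPM. Of the 7 γ-B members only 3 reached 1 TPM in both libraries. These were Pcdhgb1 with 4.65 and 5.26 TPM, Pcdhgb7 with 3.19 and 2.96 TPM and Pcdhgb6 with 3.19 and 2.86 TPM. Pcdhgb8, annotated as a polymorphic pseudogene, had 0.16 and 0.30 TPM from 12.7 and 25.1 reads.

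Levels were also set against the order of members along the chromosome. Spearman's rho between mean TPM and order was 0.70 for the 12 alternate α members by the first program and 0.77 by the second. It was -0.04 for 22 β, 0.06 for 12 γ-A and -0.43 for 7 γ-B members by the first program. With TPM summed over complete coding transcripts only, rho was 0.36 in the alternate α and 0.18 in the γ-B class. These are descriptions across genes that share libraries and, within the α and γ clusters, exons.

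Replicate 1 was set against replicate 2 with an exact binomial test (two-sided) on the expected counts of 14080 genes whose mean count was 50 or more, and p-values were adjusted by the Benjamini-Hochberg method over all of them. Only counting error enters the test, so its p-values concern these 2 libraries and no condition. No member of 55 tested was called at an adjusted p under 0.05 and a 2-fold ratio, against 2.41% of all genes tested. At an unadjusted p under 0.05 there were 24 of 55 (43.6%), against 52.2% of all genes, and with the adjusted p alone 19 of 55 (34.5%), of which 12 were higher in replicate 1, against 46.8% of all genes. The exactTest function of edgeR with a common dispersion had none with an adjusted p under 0.05 and a 2-fold ratio, against 1.24% of genes. That dispersion was estimated from the same 2 libraries as 1 group, so their difference sets the spread it is judged by. Few calls were thus built in, and no conclusion is drawn from them. The 3 members below the count minimum were Pcdha8, Pcdhb1 and Pcdhgb8.

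All 55 ratios were below 2-fold in either direction. Log2 ratios of replicate 1 over replicate 2 ran from -0.72 (Pcdhgb4) to 0.75 (Pcdhb6), with a median absolute value of 0.19 against 0.16 over all genes tested. At a ratio of 1.5-fold and an adjusted p under 0.05, 4 of 55 members were called, against 7.66% of all genes. Pcdhgb4 had 0.77 TPM in replicate 1 and 1.28 TPM in replicate 2, and the first record of Pcdha11 had 2.06 and 3.17 TPM. Pcdhb6 had 181 and 108 reads, and Pcdhb5 had 82 and 50 reads. With a minimum mean count of 10, Pcdha8 was called at 2-fold in the exact binomial test (log2 ratio 1.70, adjusted p = 0.000512), against 4.15% of the genes then tested.

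The median absolute log2 ratio between the libraries was 0.13 over α, 0.19 over β and 0.28 over γ members. For the expected counts summed over each cluster, the log2 ratio was -0.07 in the α, 0.02 in the β and 0.00 in the γ cluster, whose sum is in large part Pcdhgc5. Adjusted p-values under 0.05 in the exact binomial test were found in 3 of 13 α, 5 of 21 β and 11 of 21 γ members, against 46.8% of all genes tested. The median member had 262.6 and 284.0 reads in replicates 1 and 2 in the α, 141.5 and 141.0 in the β and 425.0 and 408.4 in the γ cluster.

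The first program also deposited a posterior mean and SD for each count. It gave an interval for each TPM as well, whose level is not given in the sources used here. The median posterior SD, as a percent of the posterior mean count, was 5.02% in replicate 1 and 4.52% in replicate 2 for α members. For γ members it was 3.69% and 3.48%, and for β members 0% and 0.213%. It was 0.492% and 0.491% for Pcdhgc5, and among members above the count minimum it was highest for Pcdha4, at 11.0% and 13.5%. TPM intervals of the 2 libraries lay apart in 10 of 55 members (18.2%), against 28.1% of all genes tested. These were 1 α, 2 β and 7 γ members.

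**Figure D3:**
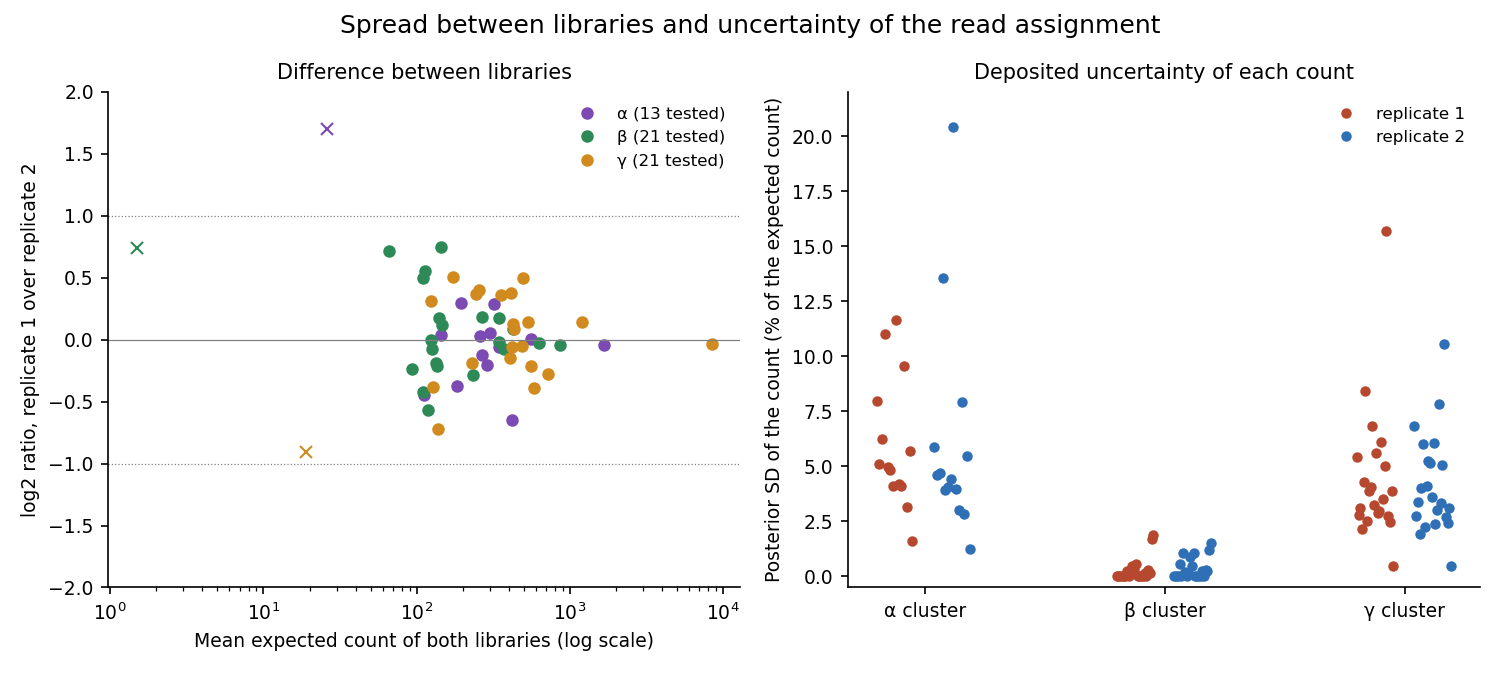
Left, log2 ratio of replicate 1 over replicate 2 against the mean expected count on a log axis, by cluster; crosses are the 3 members below the count minimum and dotted lines mark 2-fold. Right, deposited posterior SD of each count for every member in replicate 1 (red) and replicate 2 (blue). It is a percent of the posterior mean count, although the axis label names the expected count. No tested member passes the 2-fold lines, and β members lie near 0 on the right, below most α and γ members.

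Both programs ranked the members alike. Across the 58 members, Pearson's r on log2(TPM + 0.1) between the first and the second program was 0.997 in replicate 1 and 0.987 in replicate 2, and Spearman's rho was 0.994 and 0.970. Between replicates 1 and 2, r was 0.970 by the first program. In replicate 2, rho between programs was 0.83 over the 12 alternate α members, 0.985 over the 22 β members and 0.986 over the 22 γ members. These correlations are across genes, which share libraries and reads.

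On the median, TPM was higher by the first program than by the second. The median log2 ratio of the first over the second program was 0.28 in replicate 1 and 0.33 in replicate 2 over 36 members with at least 1 TPM throughout, against 0.22 and 0.27 over 13238 genes. No member of 43 differed by 2-fold in the same direction in both libraries, against 7.62% of genes with that level. At 1.5-fold, 1 of 43 did, against 9.07% of genes, and this was Pcdha4. With ratios taken relative to the median of all genes, a setting added after seeing the data, no member differed by 1.5-fold in both libraries, since Pcdha4 was then at 0.43 on the log2 scale in replicate 1.

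Members were ranked by the smaller of the differences in the 2 libraries, relative to the median of all genes. The first 5 were Pcdha4, Pcdhga10, the second record of Pcdha11, Pcdhga11 and Pcdhga4. Pcdha4 had 2.12 TPM by the first and 1.34 TPM by the second program in replicate 1, and 2.64 and 0.757 TPM in replicate 2. Pcdhga10 had 1.44 and 1.03 TPM in replicate 1, and 1.00 and 0.574 TPM in replicate 2. For the second record of Pcdha11 the programs gave 8.72 and 8.80 TPM in replicate 1, and 13.5 and 13.9 TPM in replicate 2. For Pcdhga11 they gave 2.73 and 1.96 TPM in replicate 1, and 2.99 and 2.14 TPM in replicate 2. Pcdhga4 had 2.94 and 2.25 TPM in replicate 1, and 3.02 and 2.13 TPM in replicate 2.

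**Figure D4:**
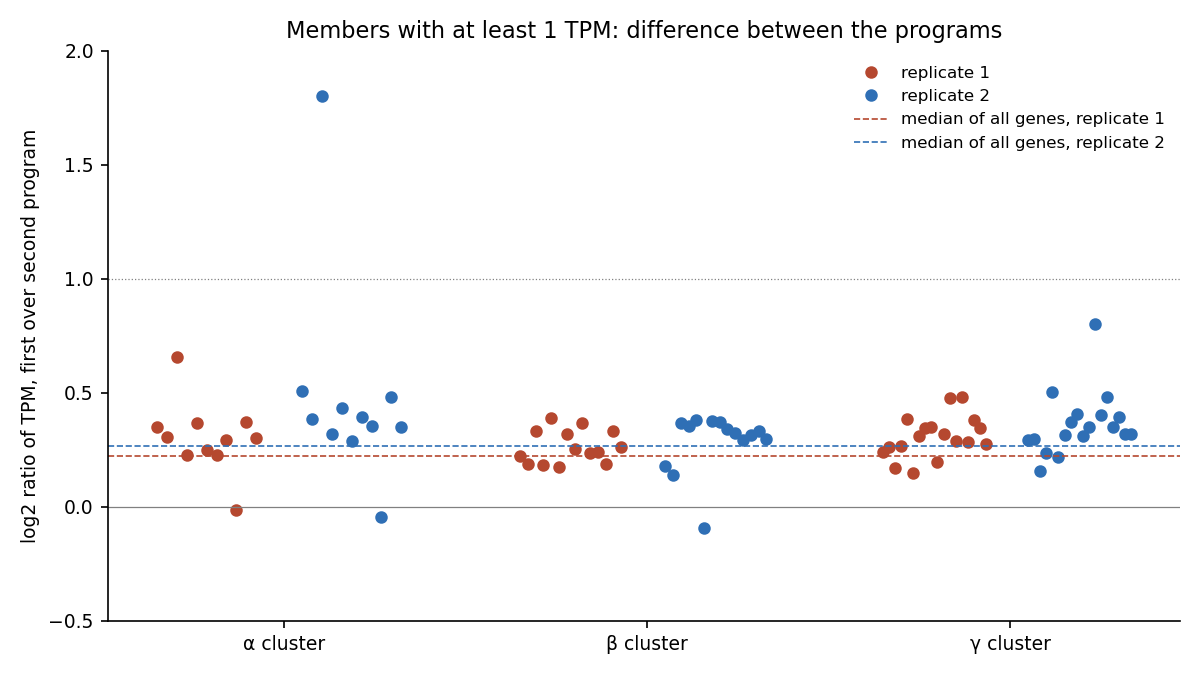
Log2 ratio of TPM of the first over the second program, for the 43 members with at least 1 TPM in both libraries by either program, in replicate 1 (red) and replicate 2 (blue); dashed lines are the medians of all genes and the dotted line is 2-fold. Pcdha4 in replicate 2 lies alone above the 2-fold line, at 1.80.

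The variable exon of Pcdha4 also belongs to an annotated read-through gene. The 2410-base first exon of Gm42416 lies wholly within the Pcdha4 variable exon, and its other 446 bases lie in exons of γ members, so that its transcript joins an α variable exon to γ constant exons. The first program assigned 51.7 reads to Gm42416 in replicate 1 and 30.5 in replicate 2, and the second program 108.7 and 213.5. For Pcdha4 alone, the log2 ratio of counts, scaled to library totals, of the first over the second program was 0.46 in replicate 1 and 1.27 in replicate 2. For the sum of Pcdha4 and Gm42416 it was 0.27 and 0.36. In replicate 2 the first program also put 37.5% of the Pcdha4 TPM on a retained-intron transcript, Pcdha4-203, which was at 0 in replicate 1 and in the second program.

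The members have 89 annotated transcripts, and 36 of 58 have only 1. Of the 22 with more, the transcript with the highest TPM was the same in both programs for 19 in replicate 1 and for 20 in replicate 2, and no member differed between programs in both libraries. It was the same in both libraries for 20 by the first and 17 by the second program. Complete coding transcripts made up 73.5% ± 8.09 of α, 96.3% ± 0.103 of β and 93.5% ± 0.784 of γ TPM by the first program (SD, n = 2).

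Nearly all of the second Pcdha11 record came from a short transcript. Pcdha11-204, of 625 bases with incomplete annotated ends, had 7.72 TPM in replicate 1 and 12.5 TPM in replicate 2, from 111.5 and 188.4 reads. It held 90.7% ± 2.96 of the TPM of that record by the first and 93.8% ± 2.48 by the second program, and 67.2% of its bases were shared with other members. Of the whole α cluster it held 24.6% ± 5.75 of the TPM (SD, n = 2). With complete coding transcripts only, a setting chosen after seeing the data, the α share of all members was 15.7% ± 0.242, the β share 23.4% ± 0.135, the γ share 61.0% ± 0.107 and the C-type share 42.6% ± 0.175, and the SD of each share was smaller than with all transcripts. The SD of the summed level was larger, at 189.7 ± 3.60 TPM against 210.4 ± 1.68 TPM with all transcripts.

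Noncoding forms led in both libraries and programs in Pcdhgb1 and Pcdhgc4, and in part of them in Pcdhgb2. The processed transcript Pcdhgb1-202, which has an exon over the variable exon of Pcdhga4, held 87.6% ± 1.77 of Pcdhgb1 TPM by the first and 91.5% ± 1.11 by the second program. The complete coding form had 0.52 TPM in replicate 1 and 0.72 TPM in replicate 2. The retained-intron transcript Pcdhgc4-202 held 76.3% ± 9.88 of Pcdhgc4 TPM by the first and 67.2% ± 1.86 by the second program. The retained-intron transcript Pcdhgb2-201 held 26.7% of Pcdhgb2 TPM in replicate 1 and 70.6% in replicate 2 by the first program, and 50.8% and 72.3% by the second. In Pcdhgc5, the complete form Pcdhgc5-201, of 944 amino acids, held 94.8% ± 0.930 of its TPM by the first and 93.8% ± 0.332 by the second program (SD, n = 2).

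The division of TPM between coding forms that differ in their 3′ part varied between libraries and programs. Pcdha2-202 encodes 902 amino acids and Pcdha2-201 encodes 948. The shorter form held 82.9% of Pcdha2 TPM in replicate 1 and 100% in replicate 2 by the first program, and 19.0% and 81.5% by the second. Pcdhga7-202 shares no bases with other members, and it held 18.1% of Pcdhga7 TPM in replicate 1 and 46.6% in replicate 2 by the first program, and 49.8% and 77.2% by the second. Of Pcdha6 TPM, the shorter form Pcdha6-201 held 51.7% and 71.6% in replicates 1 and 2 by the first program, and 39.7% and 74.5% by the second. Pcdhga1-202, of 810 amino acids, was at 0 in both libraries by the first program. By the second program it held 2.41% of Pcdhga1 TPM in replicate 1 and 79.5% in replicate 2. The programs named different leading forms of Pcdha2, Pcdha6 and Pcdhgb2 in replicate 1 and of Pcdhga1 and Pcdhga7 in replicate 2.

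**Figure D5:**
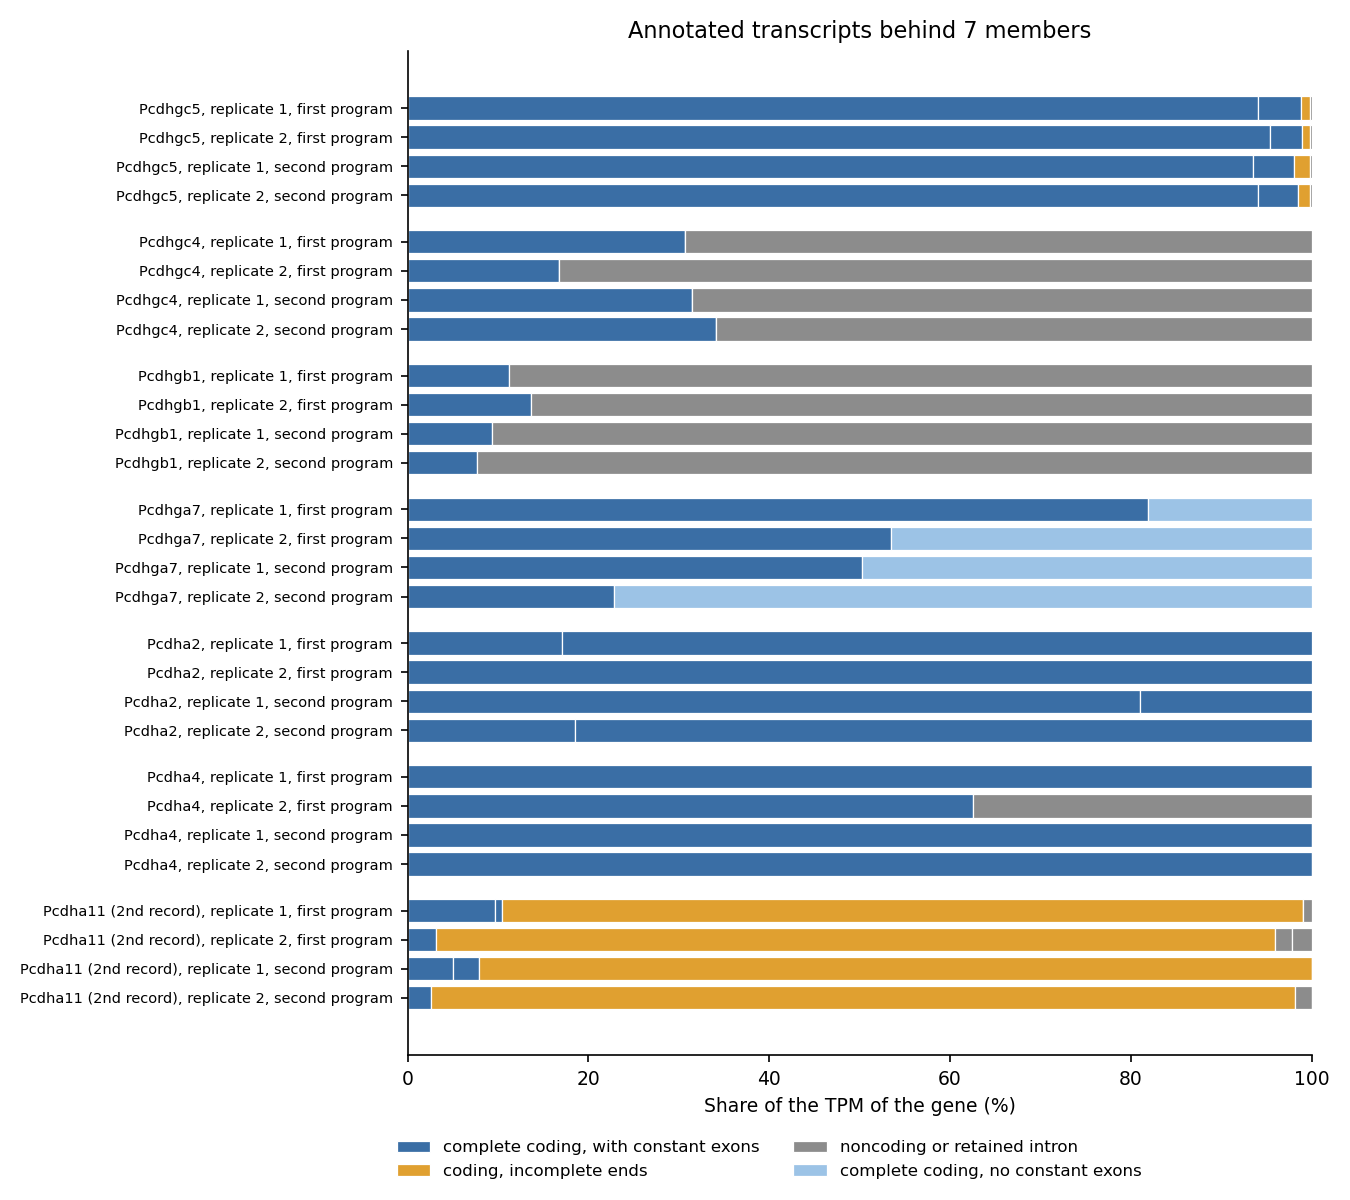
Share of each gene's TPM, in percent, by annotated transcript for 7 members, with 1 bar for each library and program and 1 segment for each transcript; colours give the kind of transcript. Pcdhgc5 is nearly all complete coding RNA, noncoding forms lead in Pcdhgc4 and Pcdhgb1, and a transcript with incomplete ends holds 90.7% of the second Pcdha11 record.

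Genes related to the clustered protocadherins, by family or by reported function, were measured in the same libraries. Of 12 nonclustered protocadherins, which are related adhesion proteins encoded elsewhere, 9 reached 1 TPM in both libraries, with a median of 8.10 TPM. Pcdh20 was the highest by mean TPM, with 39.4 and 35.3 TPM in replicates 1 and 2, but Pcdh1, with 28.2 and 38.3 TPM, was above it in replicate 2, and Pcdh12 the lowest, with 0.01 and 0.09 TPM. All 12 genes of the CTCF and cohesin list reached 1 TPM, with a median of 9.02 TPM. The cohesin loader gene Mau2 was the highest, with 20.2 and 19.1 TPM, and its partner Nipbl the lowest, with 3.21 and 2.80 TPM. Ctcf itself had 11.3 and 10.4 TPM.

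Of 10 genes of DNA methylation and silencing, 9 reached 1 TPM. Trim28, a corepressor of transcription, was the highest, with 66.4 and 67.7 TPM in replicates 1 and 2. The DNA methyltransferase gene Dnmt3b was the lowest, with 0.12 and 0.20 TPM, and Smchd1, a chromatin protein known to silence the clusters, had 18.3 and 16.6 TPM. Of 12 genes for kinases and the WAVE complex, which act below the cytoplasmic tails, 11 reached 1 TPM, with a median of 73.4 TPM. Rac1, a small GTPase, was the highest, with 220.2 and 356.7 TPM, and the receptor kinase gene Ret the lowest, with 0.76 and 0.64 TPM.

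All 7 genes of shedding and cytoplasmic cleavage were above 1 TPM. The γ-secretase subunit gene Psenen was the highest, with 160.2 and 150.9 TPM in replicates 1 and 2, and Aph1b, for another subunit, the lowest by mean TPM, with 10.2 and 7.15 TPM. The presenilin gene Psen2 had 8.88 and 10.8 TPM and was below Aph1b in replicate 1. Among 6 reported binding partners, Pdcd10 was the highest, with 77.0 and 67.4 TPM, and Axin1 the lowest, with 2.45 and 3.15 TPM. In none of these lists was a gene called between the libraries in either direction at 2-fold, against 2.41% of all genes tested in the exact binomial test.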

How the data were processed

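Gene and transcript tables of 2 hippocampus libraries were used as deposited, on mm10 with the M21 annotation, per the text deposited beside them. The programs' names and versions were not given in the sources used here. The first program gave, per the file headers, expected counts, which need not be whole, TPM, FPKM, the posterior SD of each count and, as scores, the bounds of a TPM interval. The second gave estimated counts and TPM per transcript in the deposited tables, and these were summed per gene. Deposited rows naming no gene held 2.31e-05% and 1.64e-05% of the reads and were left out.

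Members and lists were chosen with earlier results of these data known. Every member is accounted for. Named with values are all C-type members, the 3 highest and the lowest of each alternate class and of the β cluster, the 5 with the largest difference between programs, and the highest and lowest gene of each list. Others were named after their values were seen. Constant exons, shared bases and read-through exons were read from the M21 annotation, and a base was shared when a transcript of another member covered it. A complete coding transcript is a protein-coding one whose annotated ends are complete.

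Expected counts were rounded, scaled by TMM (factors 1.005 and 0.995; edgeR 4.0.16, R 4.3.3) and compared by a two-sided exact binomial test, with a prior count of 0.5 in log2 ratios. The common coefficient of variation between the libraries was 16.6% over 16640 genes, so the exact test understates the spread. Of these steps, only the exact binomial test with its calls was tried on simulated data. Those counts held counting error alone, unlike the spread between these libraries. Other steps ran in Python 3.11.15 with pandas 2.3.3, numpy 2.4.6 and scipy 1.17.1, and figures in matplotlib 3.10.9. Alternatives were other scalings, count minimums, prior counts and folds, edgeR's exactTest, the second program, FPKM, other transcript sets, other levels and pseudocounts between programs, and each library left out, with complete coding transcripts and centring on all genes added after seeing the data. Reads copied by PCR and carrying no molecular identifier are not independent molecules, so tests and limits cover counting error only. Whether counting used strand is not given in the sources used here, so reads of antisense or overlapping genes cannot be told apart.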

Additional observations from a re-analysis of the deposited data

How the results depend on the processing

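Of 52 alternatives over 7 results, 31 stayed within 1 SD, or within 1.5 times for counts. For levels and shares, each of 2 libraries always lies within 1 SD of their mean. Leaving out a library was thus bound to stay within it, and no stability is read from those settings. The number of members called between libraries was 0 and became 1 with a minimum mean count of 10 or with none above 0, and 4 at 1.5-fold, and it stayed at 0 under the other 6 settings. The number differing between programs was 0 and became 1 at 1.5-fold, or 0 at 1.5-fold relative to the median of all genes; leaving out a library gave 0 to 1, and the 1, without replicate 1, was Pcdha4.

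The summed level was 210.4 TPM by the first program, 171.2 TPM by the second, 202.1 TPM over protein-coding transcripts, 189.7 TPM over complete coding transcripts and 165.0 as FPKM, and 209.2 to 211.6 TPM when a library was left out. The α share was 15.7% with complete coding transcripts. The β share was 22.8% with protein-coding transcripts, 23.4% with complete coding ones, 18.8% of expected counts and 20.1% over members with at least 1 TPM. The γ share under the same settings was 57.5%, 61.0%, 62.3% and 60.4%. The C-type share was 42.6% with complete coding transcripts, 43.4% of expected counts and 41.4% over members with at least 1 TPM. Leaving out a library gave 17.98% to 20.67% for α, 21.4% to 22.4% for β, 58.0% to 59.6% for γ and 39.0% to 40.3% for the C-type share.

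The α share was below the β share by TPM and 18.9% against 18.8% by expected counts. No paired analysis was possible because there is 1 group. With 2 libraries, no outlier test was possible, and 3 members fell below the count minimum.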

Other observations

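The 3 clusters also hold 22 other annotated genes, 12 of them on the minus strand. Together they had 368.6 reads in replicate 1 and 394.4 in replicate 2, against 26669 and 26928 for the members. The antisense gene BC037039, which overlaps the start of Pcdhgc3, had 112.8 and 93.7 reads. Gm26672, on the minus strand over the γ cluster, had 73.6 and 132.6 reads, and Gm10545, on the minus strand over the start of the second Pcdha11 record, had 75.8 and 39.3 reads. The antisense gene Gm38225, over the start of Pcdha4, had no reads by the first program and 7.44 and 20.3 by the second.

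Besides Gm42416, another 2 read-through genes join an α first exon to γ exons. Gm37013, whose first exon lies within that of Pcdha6, had no reads by the first program, where a count of 0 allows up to 3 reads in each library. Gm37388, whose first exon lies within that of Pcdha7, had 0 reads in replicate 1 and 13.2 in replicate 2 by the first program, and 0 and 11.0 by the second.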
